A study of Mus musculus with 22 samples.

Results

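Motile cilia genes were followed through mouse lung epithelium in which Nkx2-1, whose homeodomain protein specifies lung and thyroid epithelium, or its neighbouring long noncoding RNA NANCI, or both, carried a targeted allele. The group holds 42 genes chosen by their known function: 7 regulators of multiciliated cells and 35 parts of the cilium. Of these, 40 were measured at both ages, among 13750 genes at E18.5, a late embryonic stage, and 15958 genes at 6 months. All 7 regulators and 33 of the 35 parts were measured; Dnah7a and Spag6 were not analysed here.

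The 22 libraries came from RNA of lung epithelial cells of Mus musculus. The E18.5 set has 4 groups of 3 libraries: NANCI-+/+ (called WT), NANCI-CreERT2:RFP/CreERT2:RFP (called NANCI, with both copies targeted), Nkx2.1-GFP/+ (called Nkx) and NANCI-CreERT2:RFP/+:Nkx2.1-GFP/+ (called Double, with 1 targeted copy at each locus). At 6 months there were 3 WT, 3 Nkx and 4 Double libraries. The sources used here name neither the strain, nor the parts of the loci that the alleles replace, nor any use of tamoxifen. E18.5 cells were pulled down on magnets for EpCAM, an epithelial surface protein, while FACS of the 6-month cells took those positive for EpCAM and negative for CD45 and CD31, so age and enrichment changed together and no difference was tested between ages. The labels do not say that replicates were separate animals; a p-value thus reflects how these libraries spread, which may be technical in part.

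Motile cilia are the beating hairs of the airway's multiciliated cells, which move mucus up and out of the lung. Each is built on an axoneme, a ring of paired microtubules around a central pair, along which dynein arms slide and radial spokes signal. Multiciliated fate is set by Mcidas (multicilin), which with Ccno (a cyclin-like protein) drives the making of many basal bodies, by Myb and by Trp73; Foxj1 and the RFX factors Rfx2 and Rfx3 then switch on the genes of the axoneme. RFX factors bind the X-box, a palindrome-like motif found in promoters of many ciliary genes.

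To show that motif in the genes that carry the results, 100 bases of promoter are printed for 4 cilium parts that were lower in Double libraries at both ages and for 2 early regulators that did not pass at either age, each of which holds a match. The sequences are RefSeq promoter windows on GRCm38.p6, which hold 250 bases before and 50 after a transcription start, read 5′ to 3′ on the gene's strand. Capitals mark a match to the X-box in the form GTNNCCNNGGNNAC or to the shorter GTTGCC, searched on both strands. Below, X-box means this form alone, and forms with a spacer of another length between the arms were not searched. The shorter motif can lie inside the longer one, as it does in Ccno.
Cfap126, chr1:171122945-171123044, plus strand: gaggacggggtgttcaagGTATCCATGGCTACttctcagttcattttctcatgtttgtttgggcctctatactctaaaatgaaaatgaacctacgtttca
Ccdc113, chr8:95534000-95534099, plus strand: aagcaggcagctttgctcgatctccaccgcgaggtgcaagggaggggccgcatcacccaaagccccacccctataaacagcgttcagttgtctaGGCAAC
Dynlrb2, chr8:116504915-116505014, plus strand: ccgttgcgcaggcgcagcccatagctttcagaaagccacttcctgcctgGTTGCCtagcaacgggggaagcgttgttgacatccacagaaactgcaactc
Tekt1, chr11:72361883-72361982, minus strand: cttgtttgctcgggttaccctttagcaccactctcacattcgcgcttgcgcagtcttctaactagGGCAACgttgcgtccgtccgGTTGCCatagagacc
Ccno, chr13:112987552-112987651, plus strand: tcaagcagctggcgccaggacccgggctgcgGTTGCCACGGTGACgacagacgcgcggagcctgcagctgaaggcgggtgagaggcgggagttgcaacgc
Mcidas, chr13:112993618-112993717, plus strand: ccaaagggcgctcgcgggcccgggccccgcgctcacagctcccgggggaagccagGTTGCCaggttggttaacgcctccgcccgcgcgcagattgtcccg
The X-box match of Cfap126 starts 82 bases before the start site and that of Ccno 219 bases before it. In Dynlrb2 the shorter motif starts 51 bases, in Ccdc113 6 bases and in Mcidas 195 bases before the start, and Tekt1 holds 2 such matches, at 35 and 15 bases. Of the 42 genes, 36 had a window, and 6 of them (16.7%) held the X-box, against 2.2% of 27025 genes with a window. The shorter motif stood in 19 of the 36 (52.8%), against 14.1% of all genes. TGTTTAC, a core of the forkhead motif that Foxj1-type factors bind, stood in 4 of the 36 (11.1%), against 4.1%. Of the 11 members lower in Double at both ages, 3 held the X-box, 4 the shorter motif and 6 either. A match is a description of these letters, not a bound site, and both early regulators shown hold one.

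Some properties of the libraries bear on what follows. Nkx2-1 lay between 14.48 and 14.95 in all E18.5 libraries. At 6 months it was at 14.17, 14.55 and 14.40 in the WT and 13.96, 13.77 and 13.85 in the Nkx libraries. The Double libraries were at 13.75, 13.97, 14.43 and 13.96. Every Nkx library lay below every WT library, but neither Nkx nor Double passed against WT (limma adjusted p = 0.128 and 0.114). Which part of Nkx2-1 the GFP allele replaces is not known here, so this level does not check the labels. By sex-linked genes, all 4 of the 6-month Double libraries and 1 of 3 WT libraries had a female pattern, and all 3 E18.5 NANCI but 1 of 3 E18.5 WT libraries a male one. At E18.5 WT replicate 3 stood apart from WT replicates 1 and 2 in how cilia genes of different length compared (given below), and results that rest on it are given without it. Other cell types' markers are given at each age beside the results.

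At 6 months nearly all measured cilia genes were lower in Double than in WT epithelium. Of 40 members, 36 fell, 0 rose and 4 did not pass (limma, adjusted p under 0.05 over all 15958 genes), where 17.9% of all genes were called lower and 18.4% higher. The median log2 fold change of the members was −1.44, against 0.06 over all genes. In 33 of the 40 the 4 Double libraries all lay below the 3 WT libraries, which held for 18.9% of all genes. Among female-pattern libraries alone, with 1 WT library assumed to vary like the others, 31 fell. In a bulk sample, fewer ciliated cells and less RNA of these genes per cell cannot be told apart.

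**Figure D1:**
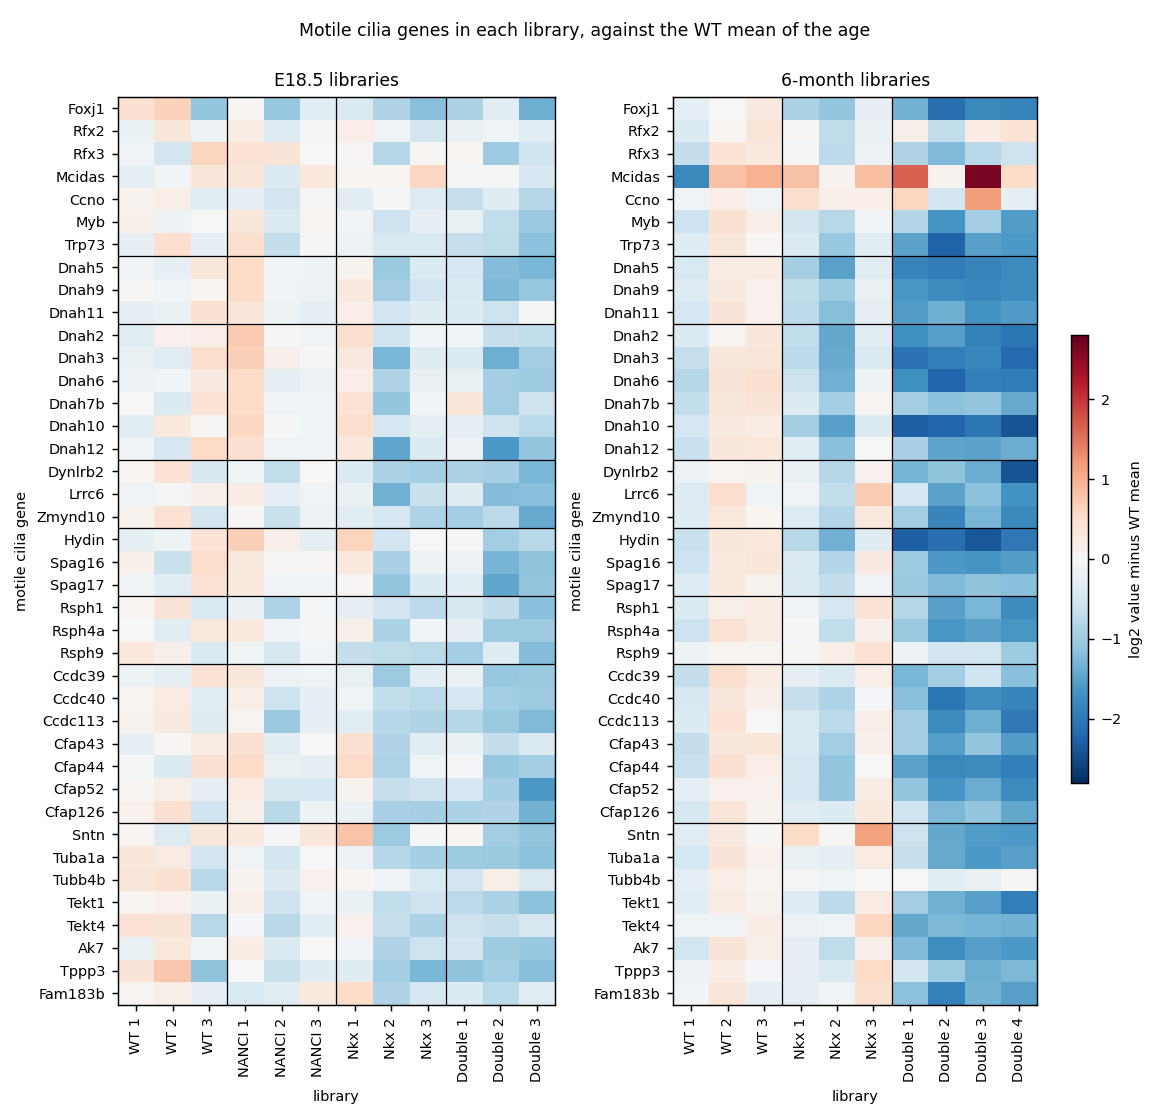
Each row is a motile cilia gene, grouped by role, and each column a library of E18.5 (left) or 6 months (right); colour is the log2 value minus the WT mean of that age. The 6-month Double columns are low in nearly every row, with 36 of 40 genes called lower, while Rfx2, Mcidas, Ccno and Tubb4b do not follow.

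Among the regulators, Foxj1 fell most. Its log2 value at 6 months was 13.62, 13.87 and 14.12 in the WT, 12.99, 12.79 and 13.65 in the Nkx and 12.54, 11.75, 12.06 and 12.01 in the Double libraries. Every Double library lay below every Nkx library, and only Nkx replicate 3 reached the lowest WT value. The Double mean of 12.09 ± 0.33 (SD, n = 4) against 13.87 ± 0.25 in WT (n = 3) gave a log2 fold change of −1.78 ± 0.22, or 3.43-fold lower (limma adjusted p = 0.00013).

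Trp73, whose TAp73 product acts upstream of Foxj1 in multiciliated cells, behaved alike in size. It stood at 9.71, 10.37 and 10.09 in the WT, 9.66, 8.99 and 9.73 in the Nkx and 8.55, 7.82, 8.53 and 8.44 in the Double libraries, so that Double lay below the other groups without overlap (−1.72 ± 0.24 against WT, adjusted p = 0.000295). Myb, a transcription factor of the early multiciliated programme, was at 9.05 ± 0.42 in Double and 10.31 ± 0.52 in WT libraries and fell by 1.26 ± 0.28 on the log2 scale (adjusted p = 0.00477). Rfx3 fell less, by 0.85 ± 0.26 (adjusted p = 0.0256), and its highest Double library, at 9.36, overlapped the lowest WT library, at 9.28; the call ended with a sex covariate, among female libraries alone and without WT replicate 2, WT replicate 3 or Double replicate 2.

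The remaining regulators did not follow. Mcidas was at 3.25, 5.89 and 6.04 in the WT, 5.88, 5.15 and 5.90 in the Nkx and 6.72, 5.15, 7.71 and 5.57 in the Double libraries. The groups overlapped, the level was low and 1 WT library lay far below the rest, so the difference of 1.23 ± 0.76 did not pass (limma adjusted p = 0.232). Ccno, its neighbour on chromosome 13, was at 8.50, 8.77 and 8.50 in the WT and 9.20, 8.05, 9.76 and 8.34 in the Double libraries, a spread wider than the difference of 0.24 ± 0.34 (adjusted p = 0.615). Rfx2 stood at 10.24 ± 0.48 in Double and 10.22 ± 0.36 in WT libraries, a difference of 0.02 ± 0.27 (adjusted p = 0.957). These directions depend on the scale: with all values centred on pan-epithelial genes, which moved the median of all genes by −0.907, Ccno turned to −0.66 (adjusted p = 0.0971), Rfx2 to −0.88 (adjusted p = 0.00698) and Mcidas to 0.32. Cdc20b and Deup1, which also serve the making of many basal bodies and were named after their values were seen, did not pass either (1.46 ± 0.70, adjusted p = 0.126, and 0.13 ± 0.47, adjusted p = 0.855).

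**Figure D2:**
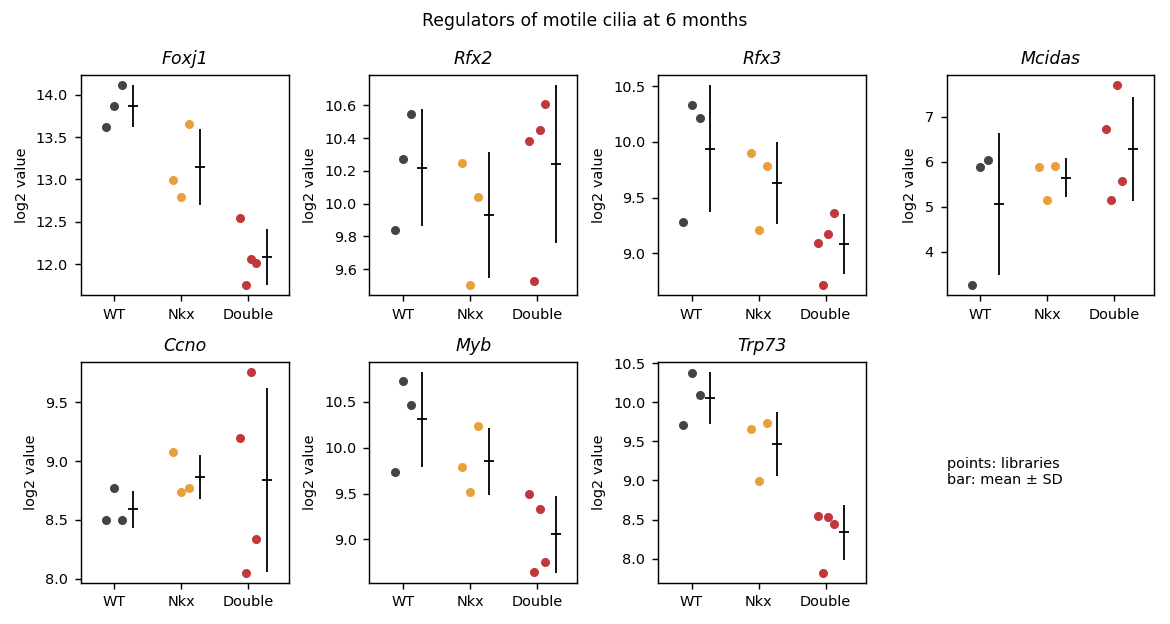
Log2 values of the 7 regulators at 6 months, 1 point per library in WT (n = 3), Nkx (n = 3) and Double (n = 4), with group means and SD. Foxj1 and Trp73 in Double lie below every WT and Nkx library, while Rfx2, Mcidas and Ccno overlap between groups.

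The dynein heavy chains, the motor proteins of the arms, made up 6 of the 10 largest falls in 6-month Double against WT. All 3 outer-arm chains and all 6 measured inner-arm chains fell. Dnah10, an inner-arm chain, was at 11.42, 12.15 and 12.10 in the WT, 10.96, 10.38 and 11.50 in the Nkx and 9.6, 9.66, 9.87 and 9.48 in the Double libraries, 4.72-fold lower in Double than in WT (−2.24 ± 0.25, adjusted p = 5.21e-05). No Double library came within the range of either other group; Nkx replicate 3 lay in the WT range and the other Nkx libraries between.

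The inner-arm chain Dnah3 was at 11.33, 12.29 and 12.32 in the WT and 9.91, 10.05, 10.16 and 9.80 in the Double libraries (−2.0 ± 0.26, adjusted p = 0.000179). Dnah6, another inner-arm chain, was at 12.16, 13.31 and 13.39 in the WT and 11.24, 10.73, 11.02 and 11.00 in the Double libraries (−1.95 ± 0.31, adjusted p = 0.000619). Dnah2, also of the inner arm, was at 10.37, 10.82 and 11.07 in the WT and 9.03, 9.22, 8.86 and 8.73 in the Double libraries (−1.79 ± 0.25, adjusted p = 0.000267). In each of these inner-arm genes the gap between the Double and WT libraries was wider than the spread among the Double libraries.

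Outer arms give the stroke most of its force. Dnah5, the outer-arm chain most often mutated in human primary ciliary dyskinesia, was at 11.91, 12.55 and 12.54 in the WT, 11.40, 10.84 and 12.03 in the Nkx and 10.47, 10.37, 10.47 and 10.56 in the Double libraries (−1.87 ± 0.24, adjusted p = 0.000145). Dnah9, which pairs with Dnah5 in the outer part of the cilium, was at 11.67, 12.29 and 12.16 in the WT, 11.34, 11.04 and 11.83 in the Nkx and 10.42, 10.29, 10.21 and 10.28 in the Double libraries. The 4 Double values of Dnah9 lay close together and clear of both groups (−1.74 ± 0.19 against WT, adjusted p = 4.7e-05). Dnah7b, which may share reads with its near-identical copy Dnah7a, fell by 1.15 ± 0.28 (adjusted p = 0.00821) and is uncertain for that reason.

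Central pair, spoke and ruler genes fell with them. Hydin, a giant protein of the central pair, was at 11.46, 12.40 and 12.36 in the WT, 11.29, 10.72 and 11.74 in the Nkx and 9.78, 9.97, 9.69 and 10.07 in the Double libraries, 4.58-fold lower in Double than in WT (−2.19 ± 0.26, adjusted p = 8.66e-05). All 3 measured central pair genes and all 3 radial spoke genes fell. The spoke head gene Rsph9 fell least of all called members, by 0.54 ± 0.18 (adjusted p = 0.0343), and its highest Double library, at 10.42, equalled its lowest WT library. All 7 genes of the ruler and cilia-and-flagella-associated set fell. Cfap44, part of the tether of inner dyneins, was at 11.37, 12.42 and 12.19 in the WT and 10.49, 10.19, 10.24 and 10.07 in the Double libraries (−1.74 ± 0.27, adjusted p = 0.000546), and Ccdc40, of the ruler that spaces the arms, fell by 1.69 ± 0.25 (adjusted p = 0.000367). No source used here says whether counting used strand, and 10 members (Tubb4b, Dnah2, Dnah3, Dnah9, Dnah11, Spag17, Rsph9, Ccdc39, Cfap43 and Cfap52) overlap a measured gene on the other strand, so their values are uncertain. Cfap43 overlaps Gsto1, which was at 15.84 to 16.93 in the 6-month Double and 11.66 to 12.74 in the WT libraries.

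The last groups hold the dynein light chain and assembly factors, of which all 3 fell, and a mixed set of tubulins, tektins and other axonemal or tip proteins, of which 7 of 8 fell. Tubb4b, a beta tubulin of cilia and of other microtubules, was the exception. It stood at 14.02, 14.46 and 14.35 in the WT and 14.27, 13.98, 14.07 and 14.22 in the Double libraries, a difference of −0.14 ± 0.13 that did not pass (adjusted p = 0.429). Centred on pan-epithelial genes the difference was −1.05 (limma adjusted p = 3.55e-05). That centring moved the median of all genes by −0.907 and called 69.3% of all genes lower. Tuba1a, an alpha tubulin with near-identical paralogs, fell by 1.30 ± 0.25 (adjusted p = 0.00207). Tubulin genes share stretches of sequence, so reads may be split between copies.

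**Figure D3:**
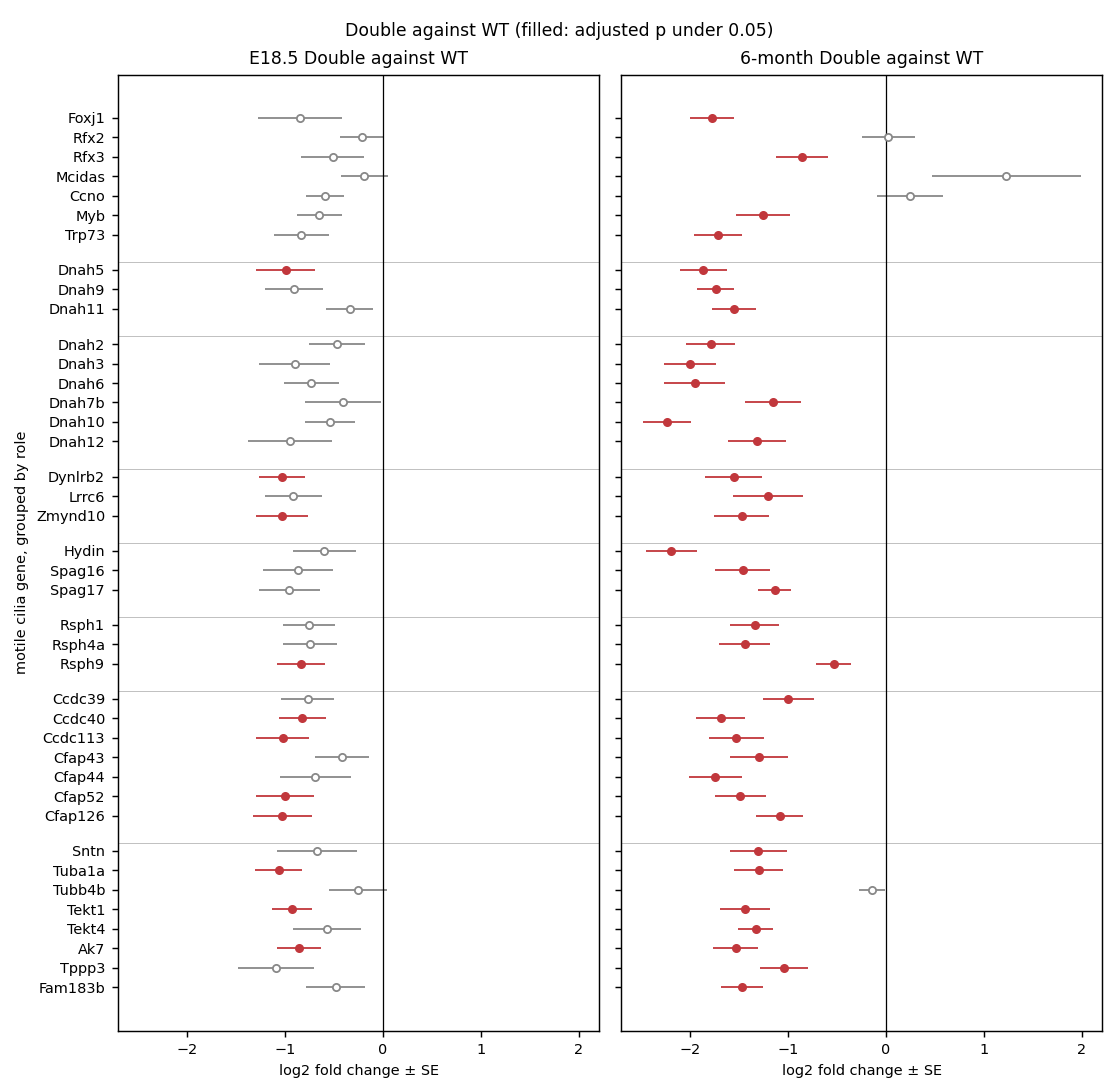
Log2 fold change with SE of each measured motile cilia gene in Double against WT at E18.5 (left) and 6 months (right), with rows grouped by role; filled points have adjusted p under 0.05. At E18.5 11 points are filled, all cilium parts, and at 6 months 36 are, 4 of them regulators.

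Most of this difference was also present against the Nkx libraries, which carry the same Nkx2.1-GFP allele without the NANCI allele. In 6-month Double against Nkx, 31 of 40 members fell and 0 rose, where 11.5% of all genes were called lower and 10.2% higher. The median was −1.11 over the members and 0.03 over all genes. All 31 had also fallen against WT; the Double libraries enter both comparisons. Without Nkx replicate 3 the count was 18 (7.84% of all genes called lower), and it was also 18 among female-pattern libraries alone (6.72%).

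The gene furthest down against Nkx was Sntn, which encodes sentan, a protein of the ciliary tip. Its value was 10.67, 10.19 and 11.30 in the Nkx, 9.87, 10.42 and 10.21 in the WT and 9.57, 8.73, 8.6 and 8.56 in the Double libraries (−1.86 ± 0.29 against Nkx, adjusted p = 0.00128). Double replicate 1 stood well above the other 3 Double libraries and still below both groups. Fam183b, a small ciliary protein gene, was at 10.67, 10.81 and 11.34 in the Nkx and 9.75, 8.99, 9.56 and 9.38 in the Double libraries (−1.52 ± 0.21, adjusted p = 0.000737). Tekt4, a tektin of the axonemal microtubules, was at 10.42, 10.46 and 11.18 in the Nkx and 9.14, 9.32, 9.28 and 9.26 in the Double libraries (−1.43 ± 0.18, adjusted p = 0.000395). Neither of these overlapped.

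Hydin and Dnah10, with the values above, were next (−1.37 ± 0.26, adjusted p = 0.00347, and −1.29 ± 0.25, adjusted p = 0.00356). Rsph1, a radial spoke head gene, was at 11.43, 11.06 and 11.91 in the Nkx and 10.73, 10.02, 10.25 and 9.77 in the Double libraries (−1.27 ± 0.25, adjusted p = 0.00419). Ak7, an adenylate kinase of cilia, was at 11.55, 11.07 and 11.91 in the Nkx and 10.55, 10.03, 10.23 and 10.16 in the Double libraries (−1.27 ± 0.23, adjusted p = 0.00283). Both were free of overlap. Dynlrb2, a dynein light chain, was at 11.29, 10.70 and 11.63 in the Nkx and 10.20, 10.38, 10.12 and 9.08 in the Double libraries (−1.26 ± 0.29, adjusted p = 0.00993). Dnah6 was at 12.35, 11.61 and 12.81 in the Nkx libraries (−1.26 ± 0.31, adjusted p = 0.0145). Rsph4a, another spoke head gene, was at 11.17, 10.52 and 11.34 in the Nkx and 10.17, 9.58, 9.69 and 9.58 in the Double libraries (−1.25 ± 0.26, adjusted p = 0.00598). The Double libraries of each lay below its Nkx range.

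Of the regulators, Foxj1 (−1.05 ± 0.22, adjusted p = 0.00648) and Trp73 (−1.12 ± 0.24, adjusted p = 0.00749) fell against Nkx. Myb (−0.80 ± 0.28, adjusted p = 0.0634), Rfx3 (−0.55 ± 0.26, adjusted p = 0.168), Rfx2 (0.31 ± 0.27), Mcidas (0.65 ± 0.76) and Ccno (−0.03 ± 0.34) did not pass, nor did the parts Tubb4b, Dnah7b, Dnah12 and Cfap43. Centred on pan-epithelial genes, which moved the median of all genes by −0.647, Rfx2 turned to −0.33 and Mcidas to −0.002, neither of which passed.

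The Nkx allele alone gave no call among the members at 6 months. In Nkx against WT 0 of 40 fell and 0 rose, where 1.11% of all genes were called lower and 1.52% higher. An unadjusted limma p under 0.05 was found for 9 of the 40 members and for 3495 of all 15958 genes, a similar share. The median was −0.32 (34 of 40 below 0, against 49.4% of all genes). That median lay between −0.57 and −0.0872 with single libraries left out (−0.0872 without Nkx replicate 2), and was −0.655 among female-pattern and 0.17 among male-pattern libraries alone. It was −0.525 in the 20 longer and −0.073 in the 20 shorter members by exonic length. The smallest p-values belonged to dynein chains, which are among the longer members and whose values are given above: Dnah10 (−0.95 ± 0.26, adjusted p = 0.0812), Dnah5 (−0.91 ± 0.25, adjusted p = 0.0841) and Dnah9 (−0.63 ± 0.20, adjusted p = 0.113). In each, Nkx replicate 3 lay within the WT range and replicates 1 and 2 below it. Foxj1 differed by −0.72 ± 0.24 (adjusted p = 0.126). Without Nkx replicate 3, 2 members passed, where 0.407% of all genes were called lower. Of the markers of other cells, 4 of 14 secretory genes rose in this comparison; its part was not tested.

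At E18.5 all 40 members had a lower mean in Double than in WT epithelium, and fewer of them passed the test than at 6 months. In Double against WT 11 of 40 members fell and 0 rose, where 7.47% of all genes were called lower and 7.13% higher. All 40 had a fold change below 0 (48% of all genes did), with a median of −0.79 against 0.02 over all genes. In 19 the groups did not overlap, with Double lower, as in 13.3% of all genes. The 11 came from 33 parts measured; 0 of 7 regulators passed, with a median of −0.59 against −0.83 in the parts. Without overlap, 3 of the 7 regulators and 16 of the 33 parts were lower in Double; regulators and parts were not tested against each other.

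The smallest p among the members was that of Tekt1, a tektin, at 10.39, 10.47 and 10.16 in the WT, 10.15, 9.65 and 9.77 in the Nkx and 9.6, 9.45 and 9.19 in the Double libraries (−0.92 ± 0.20, limma adjusted p = 0.00961). Tuba1a was at 13.08, 13.00 and 12.24 in the WT and 11.78, 11.73 and 11.62 in the Double libraries (−1.06 ± 0.24, adjusted p = 0.0107). Dynlrb2 was at 11.92, 12.25 and 11.42 in the WT and 10.97, 10.94 and 10.59 in the Double libraries (−1.03 ± 0.24, adjusted p = 0.0124). In all 3 genes the groups were apart, and in each WT replicate 3 was the lowest WT library.

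Zmynd10, which helps preassemble dynein arms in the cytoplasm, was at 10.25, 10.54 and 9.64 in the WT and 9.20, 9.40 and 8.74 in the Double libraries (−1.03 ± 0.26, adjusted p = 0.0207). Ccdc113, a ciliary coiled-coil protein gene, was at 10.28, 10.44 and 9.85 in the WT and 9.39, 9.16 and 8.96 in the Double libraries (−1.02 ± 0.27, adjusted p = 0.0249). Ak7 was at 11.27, 11.76 and 11.35 in the WT and 10.94, 10.47 and 10.39 in the Double libraries (−0.86 ± 0.23, adjusted p = 0.0248). Again no Double library reached a WT value.

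Cfap126, which helps place basal bodies, was at 10.79, 11.10 and 10.11 in the WT and 9.77, 9.82 and 9.34 in the Double libraries (−1.02 ± 0.30, adjusted p = 0.0381). Cfap52, of the inner face of the axonemal microtubules, was at 10.55, 10.67 and 10.28 in the WT and 10.04, 9.57 and 8.89 in the Double libraries (−1.0 ± 0.29, adjusted p = 0.0391). Dnah5 was at 11.59, 11.43 and 11.97 in the WT and 11.19, 10.45 and 10.38 in the Double libraries (−0.99 ± 0.30, adjusted p = 0.042). These did not overlap, but Rsph9 did: it was at 9.34, 9.20 and 8.62 in the WT and 8.10, 8.71 and 7.85 in the Double libraries (−0.83 ± 0.25, adjusted p = 0.0402). Ccdc40 was the last (−0.82 ± 0.24, adjusted p = 0.0352). All 11 were also lower in Double at 6 months, where 36 of 40 members were.

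Foxj1 was at 11.15, 11.38 and 9.65 in the WT, 10.79, 9.66 and 10.42 in the NANCI, 10.32, 9.88 and 9.55 in the Nkx and 9.85, 10.42 and 9.37 in the Double libraries at E18.5. WT replicate 3 lay more than 1 log2 unit below the other WT libraries and inside the Double range. The Double difference of −0.84 ± 0.43 did not pass (limma adjusted p = 0.234). Without WT replicate 3 it was −1.38 (adjusted p = 0.0156). The WT libraries left in that fit, replicates 1 and 2, also differed from replicate 3 in how longer and shorter members compared (0.588 and 0.458 against 1.41, given below). The part of length in this call was not tested. The difference against Nkx, −0.04, changed sign when single libraries were left out. Ccno (−0.59 ± 0.19, adjusted p = 0.0586), Trp73 (−0.83 ± 0.28, adjusted p = 0.0684) and Myb (−0.65 ± 0.23, adjusted p = 0.0819) came nearest to the threshold.

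The E18.5 count turned on single libraries, while 4.35% (without WT replicate 1) to 9.33% (without WT replicate 3) of all genes were called lower. It was 2 without Double replicate 3, 3 without WT replicate 1 or WT replicate 2, 5 without Double replicate 2, 17 without Double replicate 1 and 16 without WT replicate 3, while the median fold change of the members kept between −0.995 and −0.626. Among female-pattern libraries alone it was 0, with a median of −0.65, and among male-pattern libraries 20, with a median of −0.997. That last fit holds 1 WT and 1 Double library, assumed to vary like the 3 NANCI libraries, from which its spread was taken.

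Members were also read by transcript length. The median Double fall against WT was larger in the shorter members at E18.5 and in the longer members at 6 months. The 40 members were split at 4871.5 exonic bases into 20 shorter and 20 longer genes. The mean log2 value of the longer minus that of the shorter was 0.588 and 0.458 in WT replicates 1 and 2 but 1.41 in replicate 3. It was 1.217, 1.214 and 0.772 in the NANCI, 1.121, 0.708 and 1.157 in the Nkx and 1.21, 0.582 and 1.013 in the Double libraries. In Double against WT 9 of the 20 shorter and 2 of the 20 longer genes fell, with medians of −0.851 and −0.709; at 6 months 17 and 19 did, with medians of −1.337 and −1.62. At 6 months the longer minus the shorter members gave −0.006, 0.204 and 0.286 in the WT, −0.227, −0.45 and −0.305 in the Nkx and −0.536, −0.184, −0.32 and 0.006 in the Double libraries. All 3 Nkx libraries lay below all 3 WT libraries on it, and Double overlapped with both. Across all genes, Spearman's rho was taken between length and a gene's deviation from its age mean at E18.5. It was −0.327, −0.32 and 0.234 in WT replicates 1 to 3, and 0.246, 0.292 and −0.161 in those of NANCI. In Nkx it was 0.278, −0.186 and 0.155, and in Double 0.207, −0.204 and −0.024. Both signs thus stood in every E18.5 group, a description over genes that share a library. The part of length in the results of either age was not tested.

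**Figure D4:**
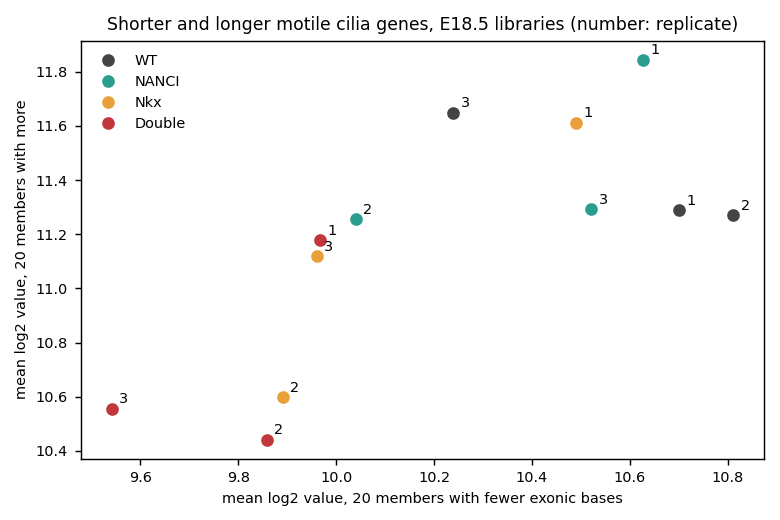
Each point is an E18.5 library, with the mean log2 value of the 20 shorter members on the x axis and of the 20 longer members on the y axis; numbers are replicates. WT replicates 1 and 2 lie to the right, at 10.701 and 10.811, and WT replicate 3 lies among the mutant groups on the x axis, at 10.239.

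Neither targeted allele alone gave a called member at E18.5. In NANCI against WT 0 of 40 fell or rose, and 0% of all genes were called in limma, while 426 genes but 0 members had an unadjusted p under 0.05. The median was −0.04 with 21 of 40 below 0 (47.9% of all genes were). The smallest p-values were those of Ccdc113, at 10.26, 9.15 and 9.97 in the NANCI libraries (−0.40 ± 0.27), Rsph1, at 10.51, 9.84 and 10.65 (−0.37 ± 0.26), and Ccno, at 9.88, 9.59 and 10.15 (−0.23 ± 0.19), each with adjusted p = 0.978. All 3 overlapped with WT.

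In Nkx against WT 0 of 40 fell or rose, where 3.65% of all genes were called lower and 3.67% higher. An unadjusted limma p under 0.05 was found for 10 of the 40 members and for 2968 of all 13750 genes, shares near each other. The median was −0.40 and 38 of 40 lay below 0 (48.1% of all genes did). That median was −0.167 without Nkx replicate 2 and −0.634 without Nkx replicate 1, the ends of its range with single libraries left out. Dynlrb2, at 11.47, 10.97 and 10.92 in the Nkx libraries, came nearest (−0.74 ± 0.24, adjusted p = 0.0827), with Rsph9, at 8.39, 8.35 and 8.29 (−0.71 ± 0.25, adjusted p = 0.107), and Tuba1a, at 12.60, 11.98 and 11.84 (−0.63 ± 0.24, adjusted p = 0.14). Rsph9 in Nkx lay below all WT libraries. Without WT replicate 3, 7 members passed, where 7.37% of all genes were called lower. Beside these, 5 of 11 leukocyte and 4 of 12 alveolar type 2 genes fell and 8 of 10 proliferation genes rose; their part was not tested.

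In Double against Nkx at E18.5 0 of 40 fell or rose, where 0% of all genes were called lower and 0.00727% higher; 559 genes but 0 members had an unadjusted p under 0.05. All 40 lay below 0 (50.2% of all genes did), with a median of −0.37, which was −0.145 without Nkx replicate 1 and −0.525 without Double replicate 1. The smallest p-values were those of Tekt1 (−0.44 ± 0.20), Cfap52 (−0.63 ± 0.29) and Hydin (−0.63 ± 0.32), each with adjusted p = 0.9998. Hydin was at 11.96, 10.81 and 11.33 in the Nkx and 11.28, 10.37 and 10.57 in the Double libraries, which overlapped.

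Group means were in the order WT, Nkx, Double from high to low in 38 of 40 members at E18.5 and in 33 at 6 months. These comparisons share WT or Nkx libraries, so the order is given as a description. In 34 members the Double fall was larger at 6 months than at E18.5; this difference between ages was not tested.

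In 6-month Double against WT the 33 parts had a median log2 fold change of −1.46, with 32 lower, and the 7 regulators one of −0.85, with 4 lower. The mean log2 value of the 33 parts minus that of the 7 regulators was 1.901, 1.699 and 1.623 in the WT, 1.44, 1.555 and 1.859 in the Nkx and 0.889, 1.418, 0.453 and 0.813 in the Double libraries. All 4 Double libraries lay below all others on this difference, but narrowly, with Double replicate 2 at 1.418 and Nkx replicate 1 at 1.44. The split depends on Mcidas, which enters the regulator mean at a low level, from 3.25 in WT replicate 1 to 7.71 in Double replicate 3. Across the 10 libraries of 6 months the correlation of each part with the mean of the other members was 0.688 to 0.993, with a median of 0.967, while it was −0.143 for Mcidas, 0.005 for Ccno and 0.095 for Rfx2, and reached 0.97 among the other regulators. Taken within genotype groups it was 0.72 for Mcidas, 0.351 for Ccno and 0.55 for Rfx2, against 0.854 for Foxj1, 0.723 for Rfx3, 0.939 for Myb and 0.805 for Trp73. These values describe the pattern and carry no test.

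**Figure D5:**
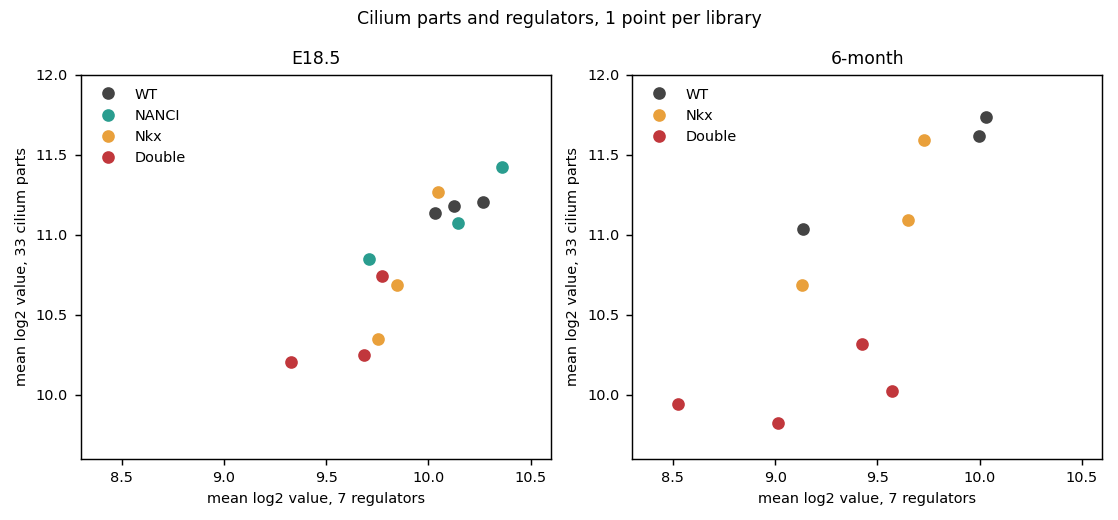
Mean log2 value of the 33 cilium parts against that of the 7 regulators, 1 point per library, at E18.5 (left) and 6 months (right). At 6 months the Double libraries, at 9.825 to 10.314 for the parts, lie below the WT and Nkx libraries, at 10.685 to 11.732, over a regulator range that overlaps.

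Motile cilia genes outside the group showed the same direction. Of a list of 107 other such genes, 102 were measured at 6 months. In Double against WT 79 of them fell and 3 rose, where 17.9% of all genes were called lower and 18.4% higher. The largest falls were in Dcdc2a (−2.16 ± 0.26), Cfap77 (−1.95 ± 0.30), Ccdc153 (−1.87 ± 0.33) and Nme9 (−1.85 ± 0.35), each with adjusted p under the threshold. The genes that rose were Tub, of the Tubby family (2.78 ± 0.45, adjusted p = 0.000636), Cep152, of the centriole (0.57 ± 0.20, adjusted p = 0.0448), and Capsl (0.48 ± 0.14, adjusted p = 0.0165). At E18.5 39 of 100 fell and 1 rose in Double against WT, where 7.47% of all genes were called lower and 7.13% higher. Cfap53 (−1.37 ± 0.26), Tekt3 (−1.32 ± 0.28) and Lrrc46 (−1.20 ± 0.26) were among those that fell, and Tub rose by 2.70 ± 0.32. In Double against Nkx at 6 months 61 fell and 1 rose, where 11.5% of all genes were called lower and 10.2% higher. Spag6l, for which RefSeq lists Spag6 as another name, is in neither list and was named after its values were seen; it fell by 0.99 ± 0.24 at E18.5 and by 1.34 ± 0.24 at 6 months in Double against WT (adjusted p = 0.0161 and 0.00121).

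Genes of the primary cilium and of intraflagellar transport, which carries cargo in every kind of cilium, were read beside these. At 6 months 24 of 55 fell and 0 rose in Double against WT, with a median of −0.42, where 17.9% of all genes fell. Traf3ip1 (−1.36 ± 0.22), Tulp3 (−1.16 ± 0.16), Nphp4 (−1.12 ± 0.35) and Ift81 (−1.03 ± 0.16) fell most. At E18.5 Ift20 (−0.77 ± 0.21), Ift81 (−0.68 ± 0.14) and Hspb11 (−0.56 ± 0.14) fell, or 3 of 54 measured, a share no larger than the 7.47% of all genes called lower, and Gpr161, a receptor of the primary cilium, rose by 1.63 ± 0.39 (adjusted p = 0.0142).

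Markers of other cells moved beside the cilia genes in 6-month Double against WT, where 17.9% of all genes were called lower and 18.4% higher. The mean log2 value of 14 secretory cell genes was 14.04 to 14.59 in Double and 12.72 to 14.05 in WT libraries, and 7 of them rose. It was 14.02 to 14.46 in the Nkx libraries, near the Double range, and in Double against Nkx 1 secretory gene rose and 2 fell. Other markers did move in Double against Nkx, where 11.5% of all genes were called lower and 10.2% higher. There all 10 endothelial, 8 of 11 mesenchymal, 8 of 12 alveolar type 1 and 7 of 12 alveolar type 2 genes fell. Of 15 pan-epithelial genes 13 rose and 1 fell, and 6 of 10 proliferation genes rose. Against WT, pan-epithelial genes rose in 13 of 15 (13.67 to 13.95 in Double against 12.88 to 12.93). Alveolar type 2 genes fell in 9 of 12 and alveolar type 1 genes in 7 of 12. Proliferation genes rose in 9 of 10 (7.78 to 9.19 against 5.90 to 7.71). All 10 endothelial genes fell (8.47 to 9.52 against 11.32 to 12.44), as did 10 of 11 mesenchymal genes (6.36 to 7.89 against 9.48 to 10.24), and the mean of 13 leukocyte genes was 7.30 to 10.22 in Double and 8.04 to 8.29 in WT libraries. Of 5 mesothelial genes 3 fell and 1 rose at 6 months (6.33 to 7.11 in Double against 7.68 to 8.27 in WT). At E18.5, where 7.47% of all genes were called lower and 7.13% higher, leukocyte genes fell in 9 of 11 (4.13 to 5.09 in Double against 7.10 to 7.44 in WT). Alveolar type 2 genes fell in 11 of 12 and all 10 proliferation genes rose. All 3 measured mesothelial genes rose (10.81 to 11.18 in Double against 8.46 to 8.95 in WT). Of 14 secretory genes 4 rose and 2 fell, and of 15 pan-epithelial genes 5 rose. The part of these shifts in the cilia results was not tested.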

How the data were processed

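Libraries were grouped by the labels' genotype and age. The authors deposited 1 log2 value per Ensembl gene and library; the values are nearly the same by rank in all libraries of an age, so they were taken as quantile-normalized log2 expression, which removes shifts shared by most genes and hides read totals. Depth is therefore unknown; the distinct values up to the median, taken as a stand-in, run from 209 to 284 in E18.5 files and from 128 to 382 in 6-month files. STAR, limma and the build mm9 are named per the submitters' processing notes; their roles and versions, the library kit and the strand of counting are not stated there. Values are not per transcript length, so levels of different genes were not compared. Symbols and coordinates came from a GENCODE annotation on GRCm38, and promoters from RefSeq on GRCm38.p6, with no conversion from mm9.

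Each of 7 comparisons was tested in limma 3.58.1 under R 4.3.3 (empirical Bayes with trend, 1 fit per age, group as the sole factor), with p-values Benjamini-Hochberg adjusted over all genes and a threshold of 0.05; ± after a fold change is its standard error. The procedure was tested on simulated data. Alternatives were no trend, both groups alone, a minimum mean, array weights, a replicate block, sex and depth covariates, centring on pan-epithelial genes, leaving out each library and, added after seeing the data, each sex pattern alone. Members and lists were chosen with earlier results of these data known. Written out per library were Foxj1, up to 10 called members per comparison by size, or the 3 smallest p-values where none passed.

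Same-numbered E18.5 Nkx and Double libraries deviated together in all 3 pairs (r = 0.298, 0.504 and 0.18), a pairing hint from the data; the replicate block changed no member call there (0 in both fits).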

Additional observations from a re-analysis of the deposited data

Results flagged for a closer look

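In a test for a library far from the rest of its group, possible only in the 4 Double libraries of 6 months, 3 of 40 members stood out, where chance gives about 1 in 20. Trp73 was at 7.82 in replicate 2, below the other 3 Double libraries, and the gap to the nearest was 0.857 of the group's range. Sntn was at 9.57 in replicate 1 and Spag16 at 9.65 in replicate 1, each above the other 3 (gaps of 0.83 and 0.853 of the range).

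In 3 members all libraries of a genotype lay on one side of the WT mean at E18.5 and on the other side at 6 months. For Mcidas the Double minus WT difference was 1.42 higher at 6 months than at E18.5 on the log2 scale. It rests on WT replicate 1 of 6 months, at 3.25: without it the difference was 0.51, and 2 of the 4 Double libraries lay above the WT mean. Without WT replicate 3 of E18.5, 2 of 3 Double libraries lay above the WT mean there. For Ccno the Nkx minus WT difference was 0.51 higher, and for Rsph9 it was 0.92 higher. In each of Ccno and Rsph9, leaving out 1 WT library put 1 Nkx library on the other side of the WT mean (E18.5 WT replicate 1 or 2 for Ccno, 6-month WT replicate 1 for Rsph9). These differences between ages were not tested.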

How the results depend on the processing

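The count of members lower in 6-month Double against WT was 29 (sex covariate) to 38 (centred, where 69.3% of all genes were called lower, against 17.9%) under all alternatives run, and 32 to 36 when single libraries were left out; among female libraries alone it was 31, with 1 WT library assumed to vary like the others. Against Nkx at 6 months the count of 31 became 18 among female libraries alone, and 18 to 34 with single libraries left out (18 without Nkx replicate 3). For E18.5 Double against WT the count of 11 became 7 without the trend, 5 in a fit of both groups alone, 30 with array weights (22.3% of all genes then called lower, against 7.47%), 21 centred (18.3%), 0 among female libraries alone (median −0.65) and 20 among male libraries alone, and 2 to 17 with single libraries left out. For E18.5 Nkx against WT the count of 0 became 7 with array weights (12.8% of all genes lower, against 3.65%). It became 3 with the depth covariate (2.93%), 1 centred (1.87%) and 0 to 7 with single libraries left out (7.37% without WT replicate 3). The E18.5 male fits hold 1 library of each of WT, Nkx and Double, with the spread from the NANCI libraries. For 6-month Nkx against WT the count of 0 became 4 with array weights (3.37% of all genes lower, against 1.11%) and 10 centred (8.77%), and 0 to 2 with single libraries left out. The cause of these shifts was not tested; fits of fewer libraries hold fewer degrees of freedom, and array weights stopped before convergence in some fits.

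With the replicate number as a block, the E18.5 Double against WT count moved from 11 to 22, while 8.17% of all genes were called lower, against 7.47%. No other member count changed by over 1.5 times. The count was 34 in 6-month Double against WT (15.8% of all genes lower) and 24 against Nkx (7.88%). Same-numbered libraries correlated in their deviations at −0.285 to 0.504 at E18.5 (6 of 18 pairs over 0.1) and −0.302 to 0.128 at 6 months (1 of 9). At E18.5 no pair with NANCI passed 0.1. WT with Nkx was at −0.178, 0.472 and 0.392 in replicates 1 to 3, and WT with Double at −0.195, 0.454 and 0.0603. Nkx with Double was at 0.298, 0.504 and 0.18. Whether WT, Nkx and Double libraries of E18.5 were paired thus stays unknown.

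Foxj1 in E18.5 Double against Nkx turned from −0.04 to 0.0332 among female libraries alone, and lay between −0.309 and 0.217 with single libraries left out (0.217 without Double replicate 3 and 0.163 without Nkx replicate 1; limma adjusted p = 1 in each reversal). Members not called in a comparison, Foxj1 apart, were followed only under centring, where 29 of 280 gene values passed anew and 14 changed sign. Of 1327 values of members called in their comparison, and of Foxj1, 1174 kept their direction and their side of the threshold, 140 lost it, 10 passed anew and 3 reversed. Female libraries alone could not be fitted for NANCI against WT, nor male libraries alone for Double at 6 months. Read totals are unknown, so depth sets no stated limit here.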
